A study of Rattus norvegicus and Mus musculus with 24 samples.

Results

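The aquaporins and the vasopressin V2 receptor were followed in kidneys that lack *Ctns*, the gene of the lysosomal cystine transporter, and in wild-type kidneys. The set was named gene by gene, with earlier results of these data known, and holds 8 genes: AQP1, AQP2, AQP3, AQP4, AQP6, AQP7, AQP11 and AVPR2. Of these, 7 were found among the 17376 symbols of the mouse table and 5 among the 14931 symbols of the rat table. AQP1, AQP3, AQP4 and AQP11 were measured in both species, AQP2, AQP6 and AVPR2 in mice only and AQP7 in rats only. The other pairs of gene and species were not analysed here.

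Each library was bulk RNA sequencing of the kidney of 1 animal. The animals were 4 *Ctns* KO and 4 *Ctns* WT mice on a C57BL/6 background, and 8 *Ctns* KO and 8 *Ctns* WT rats of the Sprague-Dawley strain. The KO alleles are carried in every cell of the animal, no treatment is named, and the ages of the sequenced animals are not given in the labels. The rats carry the numbers 17 to 24 and 25 to 32, with 4 animals of each genotype in each range. What separates the ranges is not stated in the labels, so they are called only by their numbers. The labels name kidney cortex, proximal tubule cells and microdissected tubules for the same samples, while the methods name cortex.

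Aquaporins are channels that let water, and in some cases glycerol, cross membranes. AQP1 fills the membranes of the proximal tubule and the thin descending limb and carries most of the water reabsorbed there. In the principal cells of the collecting duct, vasopressin binds the V2 receptor AVPR2, cAMP rises, protein kinase A phosphorylates AQP2, and vesicles that hold AQP2 fuse with the apical membrane. Water then leaves the cell through AQP3 and AQP4 on the basolateral side.

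Depth was 19309449 to 44449859 reads on genes per mouse and 24684097 to 40629873 per rat. CTNS, the targeted gene, was at 0.332 ± 0.0102 in KO and 0.918 ± 0.0868 in WT mice (SD, n = 4 each), in units in which the 75th percentile of a library is 1. It fell by 0.52 on the log2(value + 1) scale (limma, adjusted p = 0.000898). That scale understates changes of low genes and is unlike the log2 scale of the rat fits. Judged by the levels, CTNS was lower by less in rats. In reads of each 1000000 (CPM), it was at 16.8 to 22.2 over the KO rats and 19.2 to 27.8 over the WT rats, so the groups overlapped, and the log2 fold change of -0.22 missed the threshold of 0.05 (edgeR, adjusted p = 0.0511). By range, CTNS was at -0.11 in rats 17 to 24 (edgeR, adjusted p = 0.514) and at -0.32 in rats 25 to 32, past the threshold (edgeR, adjusted p = 0.0391). The methods name control littermates, but the labels do not say which animals shared a litter. The p-values test differences against the spread between these animals.

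The libraries held more than proximal tubule. AQP2, a marker of principal cells, had 2302 to 8633 reads per mouse, and none of the 10 principal cell markers checked in mice or the 9 in rats was at 0 reads in a group. The 10 markers of proximal tubule segments 1 and 2 measured in mice summed to 305 to 437.5 per mouse on the scale above, against 34.4 to 42.91 for the principal cell markers. In such bulk samples, fewer cells of a type and less RNA per cell cannot be told apart.

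In rats, AQP1 fell in KO kidneys. The water channel of the proximal tubule was at 1087, 1120, 1186 and 1032 CPM in KO rats 18, 20, 22 and 24, and at 1246, 1254, 1545 and 1528 CPM in WT rats 17, 19, 21 and 23 (CPM over TMM-scaled library sizes). In KO rats 26, 28, 30 and 32 it was at 1137, 1042, 974 and 1200 CPM, and in WT rats 25, 27, 29 and 31 at 2054, 1917, 2199 and 2268 CPM. Every KO rat was below every WT rat, within each range and over all 16 animals. The share of all genes whose rat groups stand apart in this way was not counted, here or for the other members. The means were 1097 ± 78.7 CPM in KO and 1751 ± 411 CPM in WT rats (SD, n = 8 each), and the fitted log2 difference was -0.67 ± 0.12 (SE; edgeR, adjusted p = 0.000702). The drop was smaller in rats 17 to 24, with a log2 fold change of -0.32 ± 0.083 (SE, n = 4 each; edgeR, adjusted p = 0.0342), and was -0.95 ± 0.084 in rats 25 to 32 (edgeR, adjusted p = 1.86e-05). In the smaller change of rats 17 to 24 the call was lost without KO rat 18, 20 or 24 or WT rat 21 or 23, with log2 fold changes of -0.27 to -0.33 there.

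AQP11 is an unusual aquaporin of the endoplasmic reticulum, known in the proximal tubule, and its loss in mice gives cystic kidneys. It also fell in KO rats. KO rats 18, 20, 22 and 24 were at 47.94, 48.56, 51.58 and 50.58 CPM, and WT rats 17, 19, 21 and 23 at 51.86, 49.38, 59.64 and 53.78 CPM, so these groups overlapped. In the higher numbers they did not: KO rats 26, 28, 30 and 32 were at 46.03, 48.57, 39.46 and 46.63 CPM and WT rats 25, 27, 29 and 31 at 58.47, 61.08, 65.4 and 65.22 CPM. The log2 fold change was -0.29 ± 0.067 (SE) over all rats (edgeR, adjusted p = 0.00376), -0.10 ± 0.063 in rats 17 to 24 (edgeR, adjusted p = 0.393) and -0.47 ± 0.074 in rats 25 to 32 (edgeR, adjusted p = 0.000614).

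AQP7, a channel for water and glycerol in the brush border of the last proximal segment, did not pass the test for genotype. It was at 117 ± 19.6 CPM in KO and 113 ± 16.4 CPM in WT rats (SD, n = 8 each), and its fitted log2 difference was 0.05 ± 0.10 (SE; edgeR, adjusted p = 0.776). The fold changes were 0.0014 ± 0.059 in rats 17 to 24 (edgeR, adjusted p = 0.994) and 0.09 ± 0.076 in rats 25 to 32 (edgeR, adjusted p = 0.377), and groups overlapped in both. AQP7 is also a gene of adipocytes. The 7 adipocyte markers present in the rat table summed to 13.06 to 17.51 CPM in WT and 16.05 to 18.59 CPM in KO rats 17 to 24, and to 15.82 to 22.75 and 23.51 to 32.26 CPM in WT and KO rats 25 to 32. FABP4, 1 of the 4 that were tested, rose over all rats (log2 fold change 1.22, edgeR adjusted p = 0.00397). CFD, CIDEC and ADIPOQ missed the threshold there (0.68, 0.75 and 0.09, edgeR adjusted p of 0.176, 0.454 and 0.475). In rats 25 to 32, FABP4, CFD and CIDEC rose and ADIPOQ missed the threshold, beside 43.8% of all genes called. PLIN1, LEP and UCP1 did not pass the filter on low counts. PLIN1 averaged 0.0256 CPM in KO and 0.0344 CPM in WT rats 25 to 32, and 0.166 and 0.567 CPM in rats 17 to 24. CIDEC also differed between the ranges in WT rats, at 0.594 CPM in the lower and 7.13 CPM in the higher numbers on average. The sums therefore do not follow the list as a whole. None of the 7 was at 0 reads in a whole group except 1 in WT rats 17 to 24. The part of such cells in the AQP7 level was not tested.

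**Figure D1:**
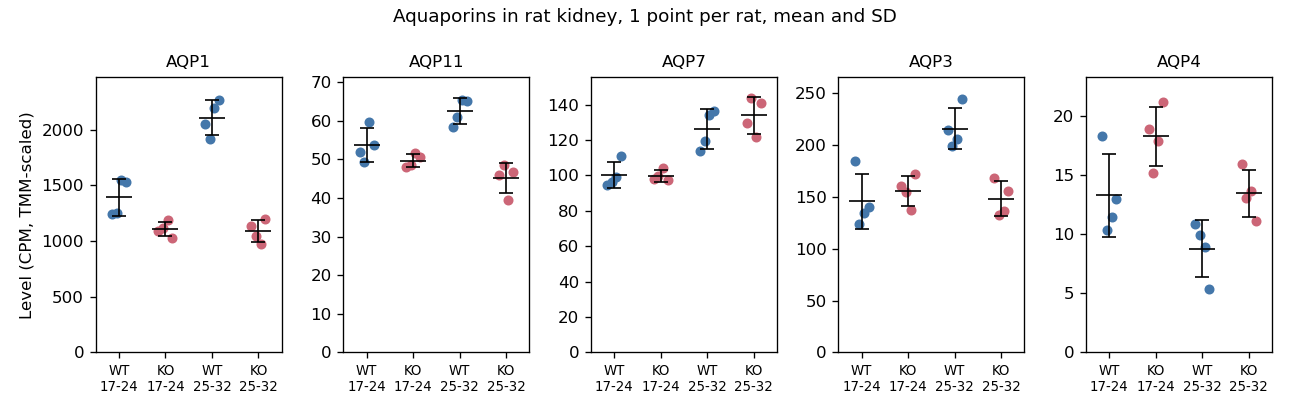
Level of each rat aquaporin in CPM over TMM-scaled library sizes (linear axis from 0), by genotype and number range; each point is 1 rat, the bar is the mean and the whisker the SD of 4 rats. KO rats have AQP1 near the same level in both ranges (1106 and 1088 CPM on average), whereas WT rats of the higher numbers are at 2109 CPM against 1393 CPM in the lower ones.

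AQP3, which passes water and glycerol through the basolateral membrane of principal cells, passed the test for genotype in rats 25 to 32 and missed it in rats 17 to 24. In the higher numbers KO rats 26, 28, 30 and 32 were at 168.3, 132.1, 136.7 and 155.1 CPM and WT rats 25, 27, 29 and 31 at 214.4, 198.8, 205.4 and 243.9 CPM. These groups stood apart, and AQP3 fell by 0.54 ± 0.092 on the log2 scale (SE; edgeR, adjusted p = 0.000968). In the lower numbers KO rats 18, 20, 22 and 24 were at 159.9, 154.4, 136.8 and 171.5 CPM and WT rats 17, 19, 21 and 23 at 184.0, 123.7, 134.7 and 140.1 CPM. There the animals were mixed, WT rat 17 was the highest of the 8, and the log2 fold change was 0.10 ± 0.12 (SE; edgeR, adjusted p = 0.698). Over all rats the value was -0.25 ± 0.13 (edgeR, adjusted p = 0.148), and it passed the threshold without WT rat 19 (-0.31; edgeR, adjusted p = 0.0494).

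AQP4, the other basolateral channel of principal cells, was higher in KO rats. It rested on 145 to 687 reads per rat. KO rats 18, 20, 22 and 24 were at 18.91, 15.22, 17.89 and 21.21 CPM and WT rats 17, 19, 21 and 23 at 18.32, 10.38, 11.5 and 13.03 CPM, where WT rat 17 lay among the KO rats. In the higher numbers KO rats 26, 28, 30 and 32 were at 15.99, 13.11, 13.7 and 11.17 CPM and WT rats 25, 27, 29 and 31 at 10.86, 9.978, 8.929 and 5.373 CPM, and the groups did not overlap. Over all rats the log2 fold change was 0.53 ± 0.19 (SE; edgeR, adjusted p = 0.0429). It was 0.48 ± 0.17 in rats 17 to 24 (edgeR, adjusted p = 0.131) and 0.62 ± 0.20 in rats 25 to 32 (edgeR, adjusted p = 0.0281). The call over all rats was close to the threshold: it was lost in 12 of the 16 fits that left out 1 rat, with adjusted p of up to 0.0796 there and the same direction in all 16. In rats 25 to 32 it was lost in 4 of 8 such fits, without KO rat 26, 28 or 30 or WT rat 29 (log2 fold changes of 0.44 to 0.73 over the 8 fits, adjusted p of up to 0.0803 in edgeR), and in rats 17 to 24 AQP4 passed without WT rat 17 (0.66; edgeR, adjusted p = 0.00674).

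In all, 3 of the 5 rat aquaporins passed the threshold over 16 rats (AQP1 and AQP11 lower, AQP4 higher), beside 27.5% of the 11584 genes tested. In rats 17 to 24 it was 1 of 5 (AQP1) beside 7.26% of all genes. In rats 25 to 32 it was 4 of 5 (AQP1, AQP11 and AQP3 lower, AQP4 higher) beside 43.8% of all genes, so calls were common among all genes in that range. Under library totals in place of TMM the median of all genes in rats 25 to 32 shifted from -0.01 to 0.15. AQP7 then passed in that range (0.25; edgeR, adjusted p = 0.0102), with the other directions as given.

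The upstream 250 bases of the 3 genes that fell in rats 25 to 32 are shown because these genes moved together there; they are the strand of the gene, 5′ to 3′, from RefSeq on the assembly GRCr8 (*Aqp1* at chr4:85812534-85812783 on the plus strand, *Aqp11* at chr1:161467919-161468168 and *Aqp3* at chr5:61040684-61040933 on the minus strand), and the files' own rat build was rn5. Capitals mark matches on either strand to TATAAA (the TATA box) or GGGCGG (the GC box).
Aqp1: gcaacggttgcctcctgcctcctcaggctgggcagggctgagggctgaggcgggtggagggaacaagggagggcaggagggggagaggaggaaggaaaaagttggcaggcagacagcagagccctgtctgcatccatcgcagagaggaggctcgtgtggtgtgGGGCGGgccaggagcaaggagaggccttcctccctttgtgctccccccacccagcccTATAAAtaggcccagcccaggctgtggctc
Aqp11: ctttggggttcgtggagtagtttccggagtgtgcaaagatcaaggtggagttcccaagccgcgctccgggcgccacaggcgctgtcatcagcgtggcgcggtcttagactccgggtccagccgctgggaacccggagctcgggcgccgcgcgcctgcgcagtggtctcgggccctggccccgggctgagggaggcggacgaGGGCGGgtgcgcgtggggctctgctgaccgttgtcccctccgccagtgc
Aqp3: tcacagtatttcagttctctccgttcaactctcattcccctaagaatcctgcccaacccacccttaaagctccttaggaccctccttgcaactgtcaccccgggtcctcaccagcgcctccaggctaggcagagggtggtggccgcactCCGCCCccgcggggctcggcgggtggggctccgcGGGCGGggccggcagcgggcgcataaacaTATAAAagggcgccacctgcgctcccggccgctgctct

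The windows of *Aqp1* and *Aqp3* held TATAAA, 30 and 38 bases before the start, and that of *Aqp11* did not. The 3 windows held GGGCGG, once each in *Aqp1* and *Aqp11* and on both strands in *Aqp3*. Among the upstream windows of 33469 rat promoters in that table, TATAAA was in 12.9% and GGGCGG in 30.5%. The core of the cAMP response element, TGACG, which was in 18.2% of the windows, and the HNF1 core GTTAAT, in 6.45%, were not in these letters of the 3 genes. A match is a run of letters and no evidence of binding.

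The size of the genotype change was then compared between the number ranges. The change was more negative in rats 25 to 32 for AQP1 (difference of log2 fold changes -0.62 ± 0.12, SE; edgeR interaction, adjusted p = 0.00436), for AQP3 (-0.64 ± 0.16; adjusted p = 0.0137) and for AQP11 (-0.36 ± 0.099; adjusted p = 0.0239). For AQP4 (0.15 ± 0.28; edgeR, adjusted p = 0.734) and AQP7 (0.09 ± 0.10; edgeR, adjusted p = 0.546) no difference was detected. These 3 of 5 stood beside 15.2% of all genes. The AQP11 call was lost without KO rat 22 or WT rat 19 and with library totals (-0.22; edgeR, adjusted p = 0.0746).

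Read along the ranges, the same fit showed where the levels moved. In WT rats all 5 aquaporins differed between the ranges, beside 21.6% of all genes. AQP1 was higher in the higher numbers by 0.60 ± 0.088 (SE) on the log2 scale (edgeR, adjusted p = 0.000128), AQP3 by 0.57 ± 0.11 (edgeR, adjusted p = 0.00162), AQP7 by 0.33 ± 0.071 (edgeR, adjusted p = 0.00291) and AQP11 by 0.22 ± 0.070 (edgeR, adjusted p = 0.0323). AQP4 was lower, by -0.59 ± 0.20 (edgeR, adjusted p = 0.0442). The calls of AQP4 and AQP11 were near the threshold. AQP4 lost its call in 8 of the 16 fits that left out 1 rat, without the filter on low counts and in limma-voom, and AQP11 in 5 of the 16 and with library totals (0.09; edgeR, adjusted p = 0.284). In KO rats only AQP7 passed, beside 47.6% of all genes, and was higher in the higher numbers by 0.42 ± 0.071 (edgeR, adjusted p = 0.000208). AQP1 was nearly level in KO rats (-0.02 ± 0.088; edgeR, adjusted p = 0.842), AQP3 was at -0.07 ± 0.11 (edgeR, adjusted p = 0.613), AQP11 at -0.14 ± 0.070 (edgeR, adjusted p = 0.117) and AQP4 at -0.44 ± 0.19 (edgeR, adjusted p = 0.0719).

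In mice, none of the 7 members passed the threshold in limma on log2(value + 1), beside 4.32% of the 17376 symbols. Unadjusted p was under 0.05 for AQP1 (0.0178) and AQP11 (0.0051) in that limma fit. AQP1 was at 14.45, 14.06, 13.38 and 16.79 in KO mice 3, 5, 6 and 8 and at 15.67, 17.77, 18.67 and 19.52 in WT mice 1, 2, 4 and 7, in units of the 75th percentile. Only KO mouse 8 and WT mouse 1 crossed. The log2 fold change was -0.27 ± 0.089 (SE; limma, adjusted p = 0.155), and DESeq2 on the whole reads put it at -0.31 and past the threshold (adjusted p = 0.017).

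AQP11 was the mouse member nearest to the threshold. It was at 0.8308, 0.6803, 0.7408 and 0.7641 in KO mice 3, 5, 6 and 8 and at 0.9022, 0.9814, 0.9539 and 0.8429 in WT mice 1, 2, 4 and 7. All KO mice were below all WT mice, with a ratio of means of 0.819. The share of all symbols whose mouse groups stand apart in this way was not counted. On the log2(value + 1) scale, which understates low genes, the change was -0.13 ± 0.033 (SE; limma, adjusted p = 0.0777). The call was made by edgeR on the whole reads (-0.31; adjusted p = 0.0223), by DESeq2 (-0.31; adjusted p = 0.0072) and by limma on genes with a mean of at least 0.1 (adjusted p = 0.0358).

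The vasopressin-regulated channel did not pass in any of these tests. AQP2 was at 3.534, 3.642, 3.36 and 3.627 in KO mice 3, 5, 6 and 8 and at 3.253, 2.523, 3.409 and 4.148 in WT mice 1, 2, 4 and 7, and the KO values lay inside the range of the WT values. Its log2 fold change was 0.08 ± 0.11 (SE; limma, adjusted p = 0.806). AVPR2, the receptor, was at 0.403 ± 0.0585 in KO and 0.484 ± 0.102 in WT mice (SD, n = 4 each), with a fitted log2 difference of -0.08 ± 0.055 (limma, adjusted p = 0.534). Its lowest KO value, 0.3222, and lowest WT value, 0.3392, were close together.

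The basolateral channels also missed the threshold in mice. AQP3 was at 2.48 ± 0.229 in KO and 2.81 ± 0.25 in WT mice (SD, n = 4 each), with a log2 fold change of -0.13 ± 0.063 (SE; limma, adjusted p = 0.338). AQP4 was at 0.789 ± 0.187 and 0.764 ± 0.286, with 0.03 ± 0.13 (limma, adjusted p = 0.962). AQP6, an anion-permeable aquaporin of vesicles in intercalated cells, was at 1.68 ± 0.167 in KO and 1.38 ± 0.25 in WT mice, with 0.17 ± 0.079 (limma, adjusted p = 0.303). KO mouse 6 alone was at 1.931, while the other KO mice lay between 1.584 and 1.618. SLC26A4, the chloride and bicarbonate exchanger of intercalated cells, was the only one of 12 intercalated cell markers past the threshold in mice (0.30; limma, adjusted p = 0.049), beside 4.32% of all symbols. Of the 12, 3 had an unadjusted p under 0.05 in that limma fit. The list's median was 0.07, beside 0 over all symbols, with 16.7% of the list below 0. These markers summed to 23.79 to 27.06 in KO and 21.24 to 25.27 in WT mice.

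**Figure D2:**
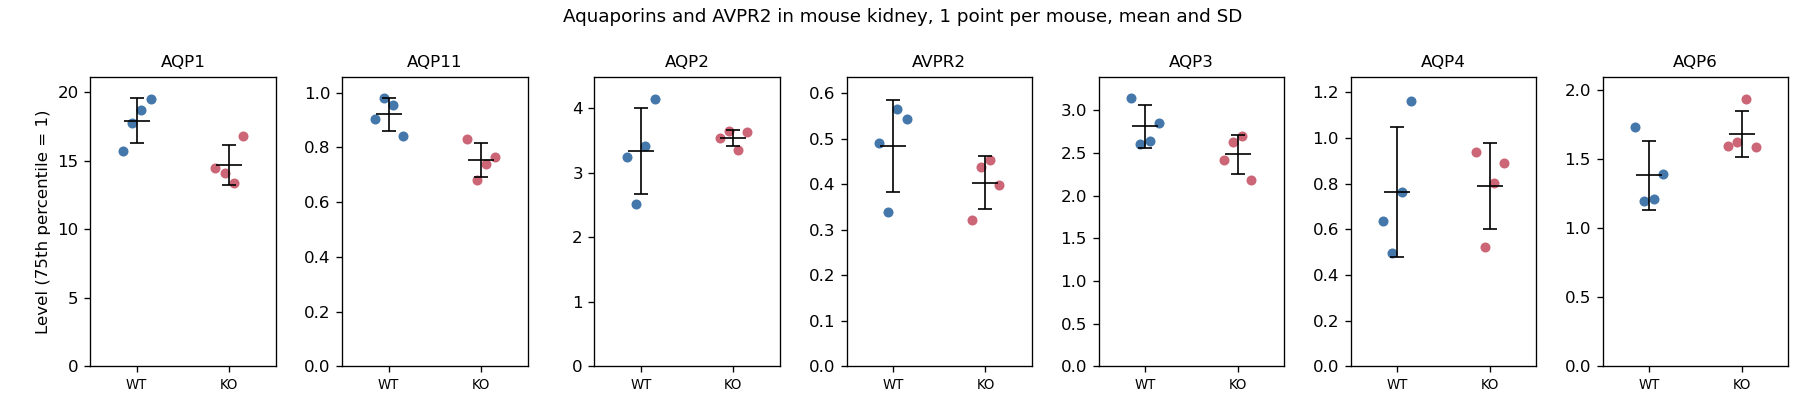
Level of each member in the mice, in units of the 75th percentile of a library (linear axes from 0, each with its own scale); each point is 1 mouse, the bar is the mean and the whisker the SD of 4 mice. AQP11 is the member whose KO mice (0.68 to 0.831) all lie below the WT mice (0.843 to 0.981).

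Levels can be compared between genes in the mouse, where transcript lengths were taken from GENCODE vM21 on mm10. In reads per kilobase of exon, set to 1000000 reads a library (RPKM), AQP1 led with 321 ± 29.6 in WT and 276 ± 29.9 in KO mice (SD, n = 4 each). AQP2 followed with 111 ± 22.4 and 123 ± 5.91 RPKM, then AQP3 with 72.3 ± 6.75 and 67.1 ± 5.8 RPKM, and AQP6 with 26.8 ± 4.96 and 34.3 ± 2.99 RPKM. The animals of these 4 genes did not overlap with those of the next gene in the order, in either genotype. AVPR2 (7.9 ± 1.73 and 6.9 ± 0.977 RPKM), AQP4 (5.76 ± 2.16 and 6.26 ± 1.48 RPKM) and AQP11 (4.59 ± 0.304 and 3.96 ± 0.327 RPKM) came last, and each overlapped with its neighbour. The receptor was read at a far lower level per length than AQP2, the channel it controls. Of the other aquaporins in the tables, AQP5, AQP8 and AQP9 had at most 6, 43 and 8 reads in a mouse, and AQP8 and AQP12A at most 8 and 7 in a rat.

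**Figure D3:**
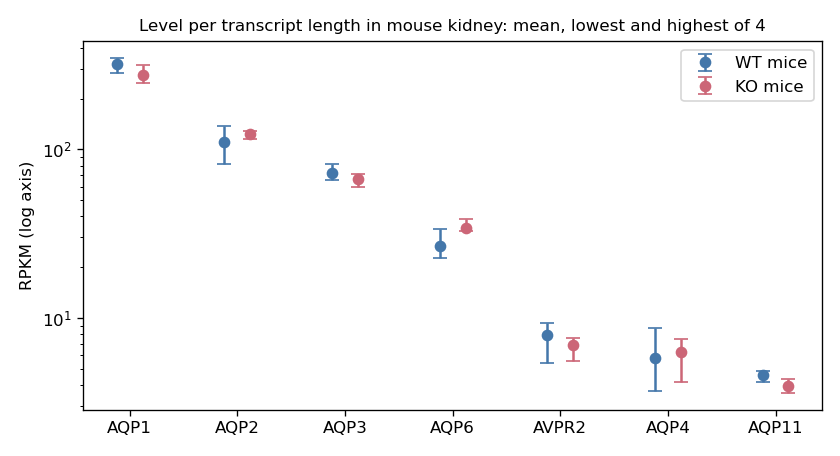
Level per exon length (RPKM, log axis) of the 7 members in WT and KO mice; points are means of 4 mice and whiskers run from the lowest to the highest mouse. The order runs from AQP1 (321 in WT) to AQP11 (4.59 in WT), and the last 3 genes overlap.

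AQP2 and AQP6 sit together in the mouse genome. On mm10, *Aqp2* spans bases 99579055 to 99584547 of chromosome 15 and *Aqp6* bases 99601400 to 99605477 on the same strand, with *Aqp5* between them at gaps of 6234 and 6570 bases. The gene between them had 1 to 6 reads per mouse. *Aqp1* spans bases 55336432 to 55348555 of chromosome 6, *Aqp3* bases 41092722 to 41098183 of chromosome 4, *Aqp11* bases 97724006 to 97738289 of chromosome 7 and *Avpr2* bases 73892102 to 73895502 of the X chromosome.

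**Figure D4:**
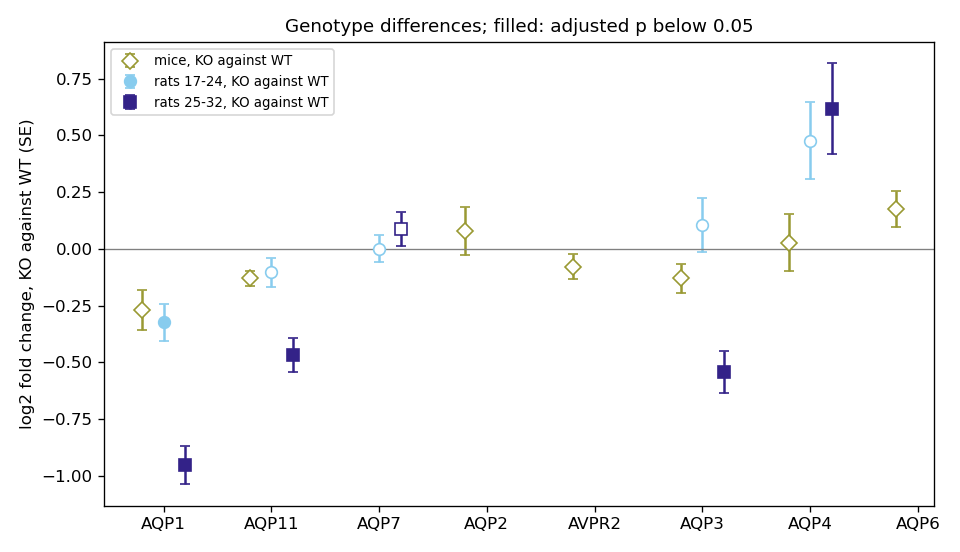
Log2 fold change (KO against WT, with SE) of each member in mice (limma on log2(value + 1)) and in the rats of each number range (edgeR); filled symbols have an adjusted p below 0.05 over all genes. AQP1 in rats 25 to 32 is at -0.95, the most negative of the values drawn, and AQP4 in the same rats is at 0.62.

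Whether the change differed between mice and rats was tested for the 4 members measured in both. None passed, beside 4.02% of the 14264 shared symbols, and no member had an unadjusted p under 0.05 in this limma fit or passed with a pseudocount of 0.1 or in limma-voom. On the log2(value + 1) scale, which understates low genes, the rat minus mouse difference of log2 fold changes was -0.31 ± 0.18 (SE) for AQP1 (limma, adjusted p = 0.389). It was -0.0036 ± 0.053 for AQP11 (limma, adjusted p = 0.987), -0.02 ± 0.16 for AQP3 (limma, adjusted p = 0.987) and 0.10 ± 0.11 for AQP4 (limma, adjusted p = 0.708). Rats of both ranges were pooled here, although the genotype change of AQP3 was above 0 in the lower numbers (0.10) and below 0 in the higher (-0.54). Its value near 0 is therefore no measure of how alike the species were.

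Other genes of the vasopressin pathway were counted from lists. Of the genes between the V2 receptor and cAMP, 0 of 16 passed in mice (limma; 1 at an unadjusted p under 0.05) and 2 of 14 in rats: PRKAR2B, a regulatory subunit of protein kinase A (log2 fold change 0.56; edgeR, adjusted p = 0.043), and ARRB2, an arrestin that takes receptors from the membrane (0.36; edgeR, adjusted p = 0.0103), both higher. In rats 25 to 32, 2 of 14 rose and 3 fell, among them PDE4D, a phosphodiesterase that degrades cAMP (-1.10; edgeR, adjusted p = 0.00227), and PRKACB, a catalytic subunit of protein kinase A (-0.72; edgeR, adjusted p = 0.00694). None of the 14 passed in rats 17 to 24 (edgeR; 1 at an unadjusted p under 0.05). These counts were no larger a share than the 27.5% of all genes called over all rats and the 43.8% called in rats 25 to 32, and the median of the list in rats 25 to 32 was 0.02, beside -0.01 over all genes.

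Among 20 genes of AQP2 trafficking and endocytosis in rats, 1 rose and 3 fell over all rats, and 2 rose and 6 fell in rats 25 to 32. With 27.5% and 43.8% of all genes called in these comparisons, the list was not called more often than genes at large. The clathrin heavy chain CLTC, which takes AQP2 back from the membrane, fell in rats 25 to 32 (-0.46; edgeR, adjusted p = 0.00183), as did MYO5B, a motor of recycling vesicles (-0.39; edgeR, adjusted p = 0.0174). None of 25 passed in mice (limma; 6 at an unadjusted p under 0.05), and none of the 20 in rats 17 to 24 (edgeR; 1 at an unadjusted p under 0.05). Among 12 transcription factors listed for AQP2 expression in the collecting duct, 1 rose and 1 fell over all rats, beside 27.5% of all genes called. ELF3 rose (0.96; edgeR, adjusted p = 0.000158) and NR1H4, the bile acid receptor, fell (-0.50; edgeR, adjusted p = 0.0014). NFAT5, which drives genes of the response to high salt, rose in mice (0.15; limma, adjusted p = 0.0309), 1 of 13 such factors there, beside 4.32% of all symbols. In that limma fit 4 of the 13 had an unadjusted p under 0.05. Of 10 genes of the tonicity response in mice, none but NFAT5 passed (limma; 1 at an unadjusted p under 0.05).

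Of 8 genes of the tonicity response in rats, AKR1B1, the aldose reductase that makes sorbitol, rose in rats 25 to 32 (0.94; edgeR, adjusted p = 1.25e-05), as did the chaperone HSPB1 (0.97; edgeR, adjusted p = 0.000302) and HSPA1B (0.83; edgeR, adjusted p = 0.0264). SLC6A6, the taurine transporter, fell (-0.55; edgeR, adjusted p = 0.0396). Over all rats, 2 of the 8 rose and none fell. These counts stand beside 27.5% of all genes over all rats and 43.8% in rats 25 to 32, and do not set the list apart. The urea transporter SLC14A1 passed the filter on low counts only in rats 25 to 32, and there only through the KO rats, in which it was high: it averaged 1.0 CPM in them and 0.248 to 0.307 CPM in the other groups, so its difference is given as levels alone.

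Marker genes of the cell types that carry the members were counted in the same fits. Of 8 markers of proximal tubule segments 1 and 2, 6 fell over all rats and 7 in rats 25 to 32 (all genes called in either direction, 27.5% and 43.8%), among them SLC6A19, a transporter of neutral amino acids (-1.15 in rats 25 to 32; edgeR, adjusted p = 2.72e-05), and the organic anion transporter SLC22A6 (-1.12; edgeR, adjusted p = 4.5e-05). Their summed level was 7258 to 8905 CPM in KO and 13817 to 15979 CPM in WT rats 25 to 32, and 9384 to 9978 and 10976 to 13045 CPM in rats 17 to 24. The list's median log2 fold change in rats 25 to 32 was -0.92, beside -0.95 for AQP1 and -0.01 over all genes. The markers of segment 3, where AQP7 is found, summed to 1025 to 1129 CPM in KO and 1599 to 1748 CPM in WT rats 25 to 32, where 4 of 8 fell and 1 rose. Their median log2 fold change there was -0.12, with 50% of them below 0. Most of the sum came from SLC27A2 (465 CPM in KO and 729 CPM in WT rats on average), ACY3 (366 and 528 CPM) and ATP11A (212 and 371 CPM). SLC5A1 was also lower in KO rats, whereas SLC7A13 (18.4 and 15.9 CPM), SLC22A7, CYP7B1 and ACOX2 were higher on average. In mice none of the 10 markers of segments 1 and 2 passed in limma, 0 of them at an unadjusted p under 0.05, all 10 had negative fold changes with a median of -0.18, and their sum was 305 to 319.9 in KO and 323.3 to 437.5 in WT mice. Their part in the aquaporin results was not tested.

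AQP1 is also made by endothelial and red blood cells and in thin limbs. None of the 6 red cell markers tested passed in edgeR over all rats or in either range, 0 of them at an unadjusted p under 0.05, and all 6 had negative fold changes in rats 25 to 32. Their summed level in rats 25 to 32, with the listed markers too low to test, was 349.6 to 566.2 CPM in KO and 503.6 to 699.8 CPM in WT rats. SLC4A1 is part of that sum and also stands in the list of intercalated cell markers. It averaged 236 CPM in KO and 248 CPM in WT rats of that range, so the sum cannot be read as red cells alone. Of the 8 endothelial markers, EMCN and KDR fell and ESAM rose in rats 25 to 32 (edgeR, log2 fold changes of -0.29, -0.37 and 0.37). Their sum was 488 to 526.6 CPM in KO and 548.5 to 581 CPM in WT rats. Of 5 markers of thin limb and inner medulla, 4 rose in rats 25 to 32, with the largest change in S100A4 (1.39, edgeR adjusted p = 7.54e-05). In that range 43.8% of all genes were called in either direction, and AKR1B1, 1 of the 4, also stands in the tonicity list. The 6 such markers measured summed to 1595 to 2125 CPM in KO and 1523 to 2028 CPM in WT rats, so the groups overlapped. Most of that sum was FXYD2, at 1700 CPM in KO and 1690 CPM in WT rats on average, which was tested and did not pass. UPK1B, too low to test, averaged 0.205 and 0.179 CPM. The list mixes thin limb with inner medulla, so the rises cannot be read as thin limb alone. The part of these cell types in the AQP1 level was not tested.

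The principal cell markers were described beside AQP3 and AQP4. In rats 25 to 32, 5 of the 9 rose and none fell, where 43.8% of all genes were called in either direction: KCNE1, a potassium channel subunit (0.59; edgeR, adjusted p = 0.000793), SCNN1B and SCNN1G, subunits of the sodium channel ENaC, HSD11B2, which inactivates glucocorticoids, and GATA3. TFCP2L1, also of the 9, lay on the side of AQP3, at 204 CPM in KO and 315 CPM in WT rats on average. It was not past the threshold. The summed level of the 9 markers was 1201 to 1327 CPM in KO and 1016 to 1144 CPM in WT rats 25 to 32, the direction of AQP4 and the opposite of AQP3. In rats 17 to 24 the sums were 1388 to 1550 CPM in KO and 1428 to 1462 CPM in WT rats, and none of the 9 passed (edgeR; 1 at an unadjusted p under 0.05). Whether the share of principal cells differed was not tested.

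**Figure D5:**
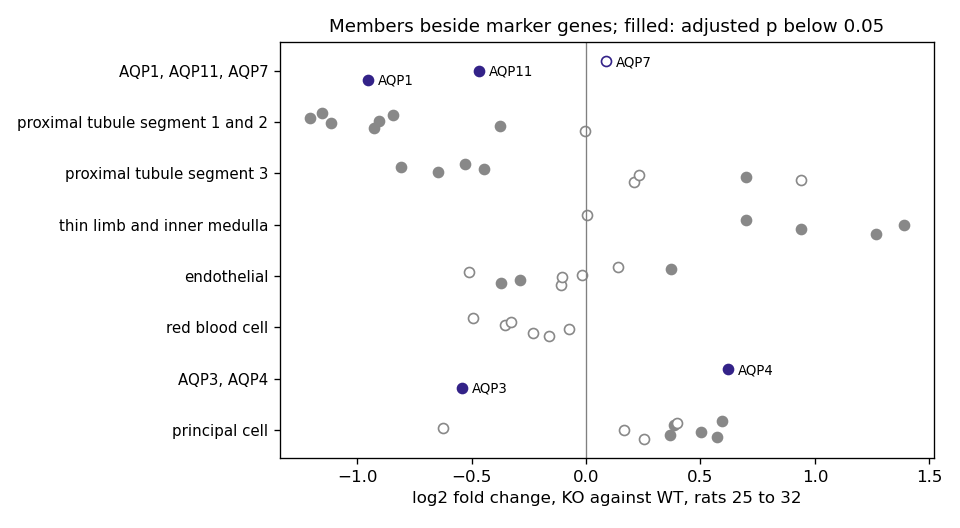
Log2 fold change (KO against WT) in rats 25 to 32 of the 5 rat aquaporins, named, above the marker genes of cell types that can carry them, 1 circle per gene; filled circles have an adjusted p below 0.05 (edgeR). AQP1 (-0.95) lies among the markers of proximal tubule segments 1 and 2 (median -0.92), while AQP3 (-0.54) lies on the other side of 0 from the 5 principal cell markers that rose. The principal cell marker TFCP2L1, an open circle, lies on the side of AQP3.

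The genes with the pattern closest to AQP1 over the 16 rats, by the root mean square difference of centred log2 levels, were C11orf54 (0.087), the gluconeogenic enzyme FBP1 (0.094), LRRC8D, a subunit of volume-regulated anion channels (0.097), SLC13A3, a dicarboxylate carrier (0.101), and FMO1 (0.115). The median over the 10827 genes compared was 0.440. In the 8 mice the closest genes were C12orf65 (0.061), RUFY4 (0.063), HGD (0.063), LRRC19 (0.072) and C1RL (0.072), beside a median of 0.234 over 12495 genes. For AQP2 in mice they were IRX1 (0.044), CREM (0.066), FOXD1 (0.073), SPI1 (0.074) and RAB38 (0.078), beside a median of 0.240. These are descriptions over animals that share genotype and scaling.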

How the data were processed

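RNA was sequenced by the authors from 8 mice and 16 rats with stranded mRNA libraries. The submitters' processing notes name bcl2fastq 2.20, STAR 2.7.3, DESeq2 1.24.0, R 3.6.1 and the builds mm10 and rn5; the counter and annotation are not given in the sources used here. For the mouse, the authors deposited a scaled signal per gene, (reads + 0.5)/(75th percentile + 0.5), as worked out from the values. Whole reads within 0.01 came back for 98.988% of values and for all member values. The rat values deposited by the authors are estimated counts with a constant added, which was taken off before rounding. No count of a member equalled that of another symbol in every animal, and no libraries of a group were alike to within counting noise (chi-square over its degrees of freedom at least 12.7 in mice and 8.85 in rats).

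Mice were tested with limma 3.58.1 (trend, robust) on log2(value + 1) without a filter, a scale that understates changes of low genes. Rats were tested with edgeR 4.0.16 (quasi-likelihood, robust, TMM, filterByExpr) in R 4.3.3. The SE given with an edgeR value was worked out from the test, as the absolute log2 fold change over the square root of the F statistic. P-values were adjusted by Benjamini-Hochberg over all genes tested, threshold 0.05. Scripts were tested on simulated data. Printed rat levels are CPM over TMM-scaled library sizes, and reads per length used the exon union. Alternatives were DESeq2 1.42.0, limma-voom, other size factors, filters and pseudocounts, the number range as a covariate, library totals and leaving out each animal; library totals, those of the range differences and the mice left out of the species test were added after the data were seen. Named were all 8 members, CTNS, from each list and comparison up to 3 of the largest rises and 3 of the largest falls past the threshold (others named only to complete a count), and the 5 genes most like AQP1 or AQP2 with a mean of at least 1 CPM. Members and lists were chosen with earlier results of these data known.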

Additional observations from a re-analysis of the deposited data

Results flagged for a closer look

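The change of AQP1, AQP3 and AQP11 by genotype differed between rats 25 to 32 and rats 17 to 24 in the test of the difference itself, by -0.62 for AQP1, -0.64 for AQP3 and -0.36 for AQP11 on the log2 scale (edgeR interaction; the adjusted p-values stand in the report). AQP1 was lower in KO in both ranges, AQP11 was below 0 in both, and AQP3 was above 0 in the lower numbers (0.10) and below 0 in the higher (-0.54).

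In 2 of the 24 groups of a member and a genotype, 1 animal stood far from the others by Dixon's criterion, which chance meets in about 1 in 20 groups. KO mouse 6 was at 1.931 for AQP6, with a gap of 0.902 of the group's range to the next mouse. KO rat 30 was at 39.46 CPM for AQP11, with a gap of 0.542 of the range to the next rat (46.03 CPM). Without KO rat 30, AQP11 kept its direction and its call over all rats.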

How the results depend on the processing

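No paired analysis was possible because no animal number is shared between the genotypes and the labels do not name litters. In mice, where 0 members passed, 1 passed with only genes of a mean of at least 0.1 and 1 with edgeR on whole reads (AQP11 in both), and 2 with DESeq2 (AQP1 and AQP11); no member passed with 1 mouse left out. On reads, without the added 1, AVPR2 was at up to -0.29 in place of -0.08 and still missed the threshold. The count in rats 17 to 24 ran from 0 to 2 with 1 rat left out. For the range differences it ran from 3 to 5 in WT rats and from 1 to 2 in KO rats, where AQP4 passed without WT rat 17 or 31. With the number range as a covariate, 3 aquaporins passed over all rats, as without it.

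Sign changes were seen only in values that missed the threshold and lay near 0. AQP7 in rats 17 to 24 was at -0.0066 with DESeq2, -0.0053 with its size factors, -0.0027 with no filter and -0.029 to 0.049 with 1 rat left out; over all rats it was at -0.0018 to 0.11. In mice, leaving 1 out gave -0.015 to 0.17 for AQP2 and -0.047 to 0.13 for AQP4. Leaving 1 rat out gave -0.037 to 0.27 for the AQP4 difference between ranges and -0.084 to 0.026 for AQP1 between ranges in KO rats. In the species difference, AQP11 was at 0.024 with a pseudocount of 0.1, 0.032 with limma-voom and -0.024 to 0.017 with 1 mouse left out, AQP3 at -0.058 to 0.014 and AQP4 at -0.0059 to 0.17. AQP4 there was at 0.36 to 0.58 under the other pseudocount and limma-voom. The causes were not tested. The number of animals and, for AQP4, AVPR2 and AQP11, the low read numbers limit the precision.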
